A study of Rattus norvegicus with 37 samples.

Results

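The same injury in the same cage was present in both sample sets of this study of the rat liver after spinal cord injury (SCI), and the livers of those rats are compared here. The members were chosen from the sample labels: 5 rats of the SCI + In-Cage Activity set (CONT SCI + Tiny, below the In-Cage rats) and 4 rats of the SCI + Exercise set (CONT SCI, below the Exercise rats), which makes 9 of the 37 libraries. All 9 were female Sprague-Dawley rats with an estimated age of 8 to 9 weeks at injury, and each was killed 11.5 weeks after a moderately severe contusion of the upper thoracic spinal cord. Before that they had been gentled in standard cages, received an antibiotic and an opioid around surgery and, from 3 days after injury, lived in pairs in tiny cages that restrict movement. None of the 9 was exercised: the name Exercise refers to the set, in which other rats swam or walked in shallow water. The uninjured rats used beside them were 5 No SCI + Standard rats of the In-Cage set, kept in standard cages, and 4 No SCI rats of the Exercise set, kept in tiny cages, all of the same sex, strain and estimated age and killed at the equivalent time. Values of the other groups are given beside them in places: CONT SCI + Large (In-Cage set, the same contusion, large cages), CONT SCI + SWIM and CONT SCI + SWW (Exercise set, the same contusion, tiny cages, with swimming or shallow water walking) and TX SCI (Exercise set, tiny cages, complete transection of the cord, killed 8.5 weeks after injury). By the labels, the CONT SCI + Large, CONT SCI + SWIM and CONT SCI + SWW rats were also killed 11.5 weeks after injury. The paper gives a later collection for the exercised rats than the labels do. The labels give no difference between the 2 contused groups compared here other than the set. They name no collection day, library batch or sequencing run, and any such difference between the sets cannot be told apart from a difference between the cohorts of rats. Rats that shared a cage came from one group, and the labels do not say which rats were cage mates.

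The liver stores and releases glucose, makes and exports lipids and bile, and secretes most proteins of the blood plasma, and hepatocytes supply most of its messenger RNA. It receives sympathetic nerves whose outflow from the thoracic cord is under descending control, and a contusion of the upper thoracic cord damages those descending fibres. The contusion model leaves part of the tissue at the injury site intact, in contrast to a transection. These statements are background. Gene names could not be attached to the Ensembl identifiers of the count table, since 0 of the 24613 identifiers were matched by the RefSeq table used here. The genes are therefore described by identifier, level and difference, and the labelled tissue was not checked against marker genes. In a whole-liver extract, fewer cells of a type and less RNA per cell cannot be told apart.

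The In-Cage libraries were shallower than the Exercise libraries. The reads counted on genes were 24694581, 24814052, 23131856, 25130252 and 20066978 in In-Cage rats 1 to 5, and 35765326, 35540367, 28427149 and 32431045 in Exercise rats 1 to 4. The groups did not overlap in depth (p = 0.0159, two-sided exact permutation test, the smallest p that 5 against 4 allows). At least 1 count was found for 14936.8 ± 125.6 genes (SD, n = 5) in In-Cage rats and for 15519.5 ± 63.4 (SD, n = 4) in Exercise rats (exact permutation p = 0.0159). After every library was thinned to the lowest total, the numbers were 14790.8 ± 154 and 15011.5 ± 162, and the difference of -220.7 genes did not pass the test (exact permutation p = 0.111). The 10 genes with the most counts took 27.8% ± 1.51 (SD, n = 5) of the reads of an In-Cage library and 25.2% ± 0.306 (SD, n = 4) of the reads of an Exercise library (exact permutation p = 0.0159).

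How much of the liver transcriptome differed between rats with the same injury and cage was tested gene by gene. Of 12199 genes with enough counts, 5505 (45.1%) had an adjusted p under 0.05 by the quasi-likelihood F test of edgeR, adjusted by the Benjamini-Hochberg method, and such genes are named called below. Of these, 2713 genes (22.2% of those tested) were higher in the In-Cage rats and 2792 (22.9%) were lower. Leaving out each of the 9 rats in turn gave between 4487 and 5557 called genes, and thinning all libraries to the same depth gave 5223, of which 5103 were also called at full depth. The normalized values of the groups did not overlap for 4344 genes (35.6% of those tested). Among called genes, 63.9% of those higher and 85.9% of those lower in the In-Cage rats had no overlap.

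The 2 directions held nearly the same number of genes but differed in how far the genes had moved. The median log2 fold change, coded In-Cage minus Exercise throughout, was 0.61 over the genes called higher and -0.77 over those called lower, beside 0.03 over all genes tested. At 2-fold or more, 484 genes were higher and 933 were lower in the In-Cage rats. At 4-fold or more, 21 were higher and 178 were lower, and at 8-fold or more 2 were higher and 59 were lower. No gene was called 16-fold or more higher, while 33 genes were called that much lower, 19 of them by 32-fold or more. The plot of fold change against mean level shows this long lower tail, which reached -8.50 on the log2 scale against 3.67 at the upper end. The fitted size of the largest folds rests on In-Cage libraries with few or no counts and depends on the prior count of the fit. The count of 21 genes was not stable, since it was 32 without Exercise rat 2, 54 without rat 3 and 33 without rat 4. Leaving out each of these rats also let more genes with low counts into the test, 12283 to 12295 against 12199. The part of each in the rise was not tested. The 178 lower genes numbered between 165 and 206 whichever of the 9 rats was left out.

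**Figure D1:**
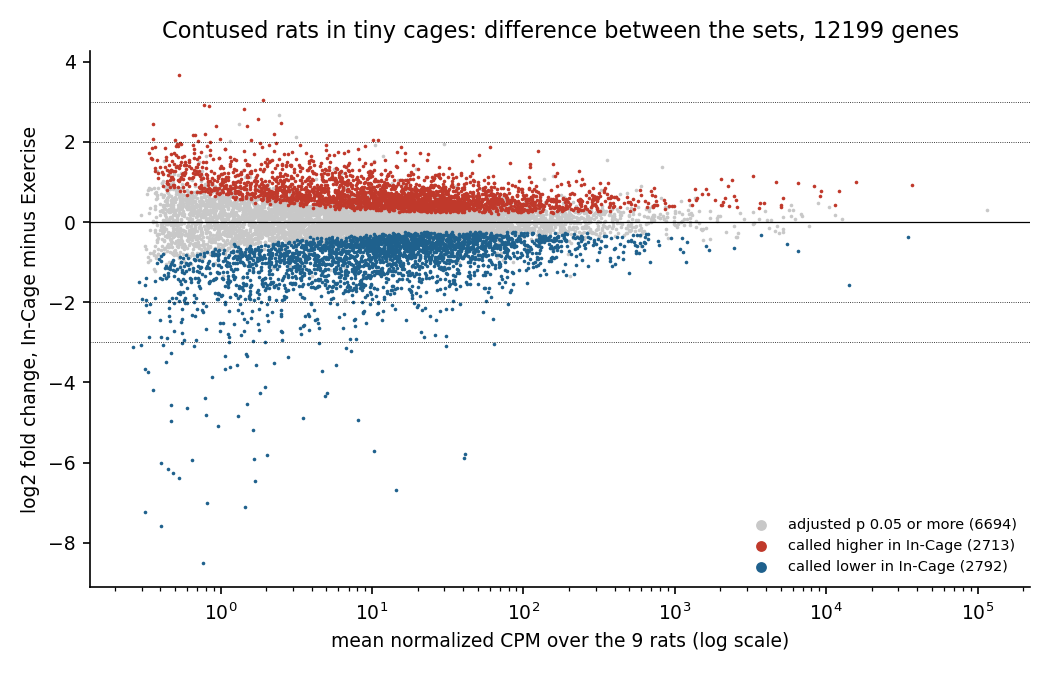
Each point is 1 of the 12199 genes tested, with the mean normalized CPM over the 9 contused rats on a log axis and the log2 fold change, In-Cage minus Exercise, on the other axis. Red points are the 2713 genes called higher and blue points the 2792 called lower in the In-Cage rats, dotted lines mark 4-fold and 8-fold, and the points below -3 have few counterparts above 3.

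The direction of the called genes was not the same at every level. Levels are given as CPM, the count of a gene scaled to the normalized size of its library. Below 1 CPM on average over the 9 rats, 31.4% of the genes were called, and between 10 and 100 CPM, where the fit is more precise, 49.2% were called. The median standard error of the log2 fold change was 0.34 in the first of these classes and 0.12 in the second. At 1000 CPM or more, 120 genes were tested, of which 36 were called higher and 13 lower, so that 73.5% of the called genes in this class were higher in the In-Cage rats. Between 1 and 10 CPM the corresponding share was 47.3%. Reads on the genes called higher made up 31.3% to 33.6% of the In-Cage libraries and 20.5% to 25.0% of the Exercise libraries. Reads on the genes called lower made up 11.3% to 13.7% and 20.4% to 22.8%. The last 4 ranges follow from the calls themselves and are given as a description.

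Of the 10 genes with the most counts over the 9 rats, 4 were called higher, 2 were called lower and 4 were not called. With so few genes, these 6 of 10 are set only as a description beside the 45.1% called among all genes and the 40.8% called at 1000 CPM or more. The gene with the most counts stood at 125007 ± 14170 CPM (SD, n = 5) in the In-Cage rats and 103900 ± 12122 (SD, n = 4) in the Exercise rats, a log2 fold change of 0.31 ± 0.13 (SE) that did not pass the test (edgeR adjusted p = 0.0643). The second stood at 46563 ± 4868 and 25237 ± 6042 CPM, a log2 fold change of 0.93 (edgeR adjusted p = 0.000574). The fifth had the largest difference of the 10, with 7401 ± 1810 CPM in the In-Cage rats and 22720 ± 3670 in the Exercise rats and a log2 fold change of -1.57 ± 0.18 (SE; edgeR adjusted p = 2.80e-05). These are levels per library and not per transcript length. The other 7 of the 10 lay between -0.38 and 0.99 on the log2 scale.

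ENSRNOG00000039876 had the largest decrease in the In-Cage rats among the well-counted genes that met the rule for naming. Its normalized CPM was 0.180, 0.0440, 0.517, 0.0875 and 0.695 in In-Cage rats 1 to 5, from 4, 1, 12, 2 and 13 counts. In Exercise rats 1 to 4 it was 38.6, 29.7, 28.7 and 30.1, from 1348, 1043, 819 and 958 counts. No In-Cage rat came near the lowest Exercise rat. The log2 fold change was -6.69 ± 0.37 (SE; edgeR adjusted p = 1.39e-06), and it lay between -7.17 and -6.40 with each rat left out. The other libraries showed the same division. Among the CONT SCI + Large rats, which belong to the In-Cage set, the highest value was 0.966 CPM, and among the TX SCI rats, which belong to the Exercise set, the lowest was 22.5 CPM.

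ENSRNOG00000057347 was the next of the decreased genes. It stood at 1.30, 0.572, 2.41, 0.569 and 2.57 CPM in In-Cage rats 1 to 5 and at 75.0, 127.5, 64.2 and 92.9 CPM in Exercise rats 1 to 4. The log2 fold change was -5.89 ± 0.45 (SE; edgeR adjusted p = 2.42e-05). For both genes, In-Cage rats 3 and 5 were the highest and rats 2 and 4 the lowest of their group. The highest CONT SCI + Large rat had 7.42 CPM of ENSRNOG00000057347, and the gene lay between 208.2 and 405.7 CPM in the CONT SCI + SWIM rats.

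The increased genes were separated by much less. ENSRNOG00000018606 stood at 10.4, 28.3, 21.3, 10.98 and 10.86 CPM in In-Cage rats 1 to 5 and at 3.78, 2.88, 4.42 and 5.28 CPM in Exercise rats 1 to 4, a log2 fold change of 2.05 ± 0.35 (SE; edgeR adjusted p = 0.00116). In-Cage rats 2 and 3 were well above the other three, and the groups did not overlap. ENSRNOG00000060307 stood at 14.3, 10.7, 22.3, 14.04 and 15.1 CPM in the In-Cage rats and at 3.98, 7.73, 1.44 and 2.08 CPM in the Exercise rats, a log2 fold change of 2.04 ± 0.46 (SE; edgeR adjusted p = 0.00661). Exercise rat 2 was the nearest to the In-Cage rats. In the uninjured rats the sets did not overlap for either gene: ENSRNOG00000018606 ranged from 7.35 to 21.9 CPM in No SCI + Standard and from 1.39 to 3.58 CPM in No SCI of the Exercise set, and ENSRNOG00000060307 from 10.7 to 36.7 and from 4.91 to 8.60 CPM. Other groups of the sets did overlap, unlike for the decreased genes. For ENSRNOG00000018606 the CONT SCI + Large rats ranged from 4.73 to 12.0 CPM and the CONT SCI + SWIM rats from 2.05 to 15.0 CPM, and for ENSRNOG00000060307 these groups ranged from 6.12 to 21.9 and from 7.14 to 11.2 CPM.

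**Figure D2:**
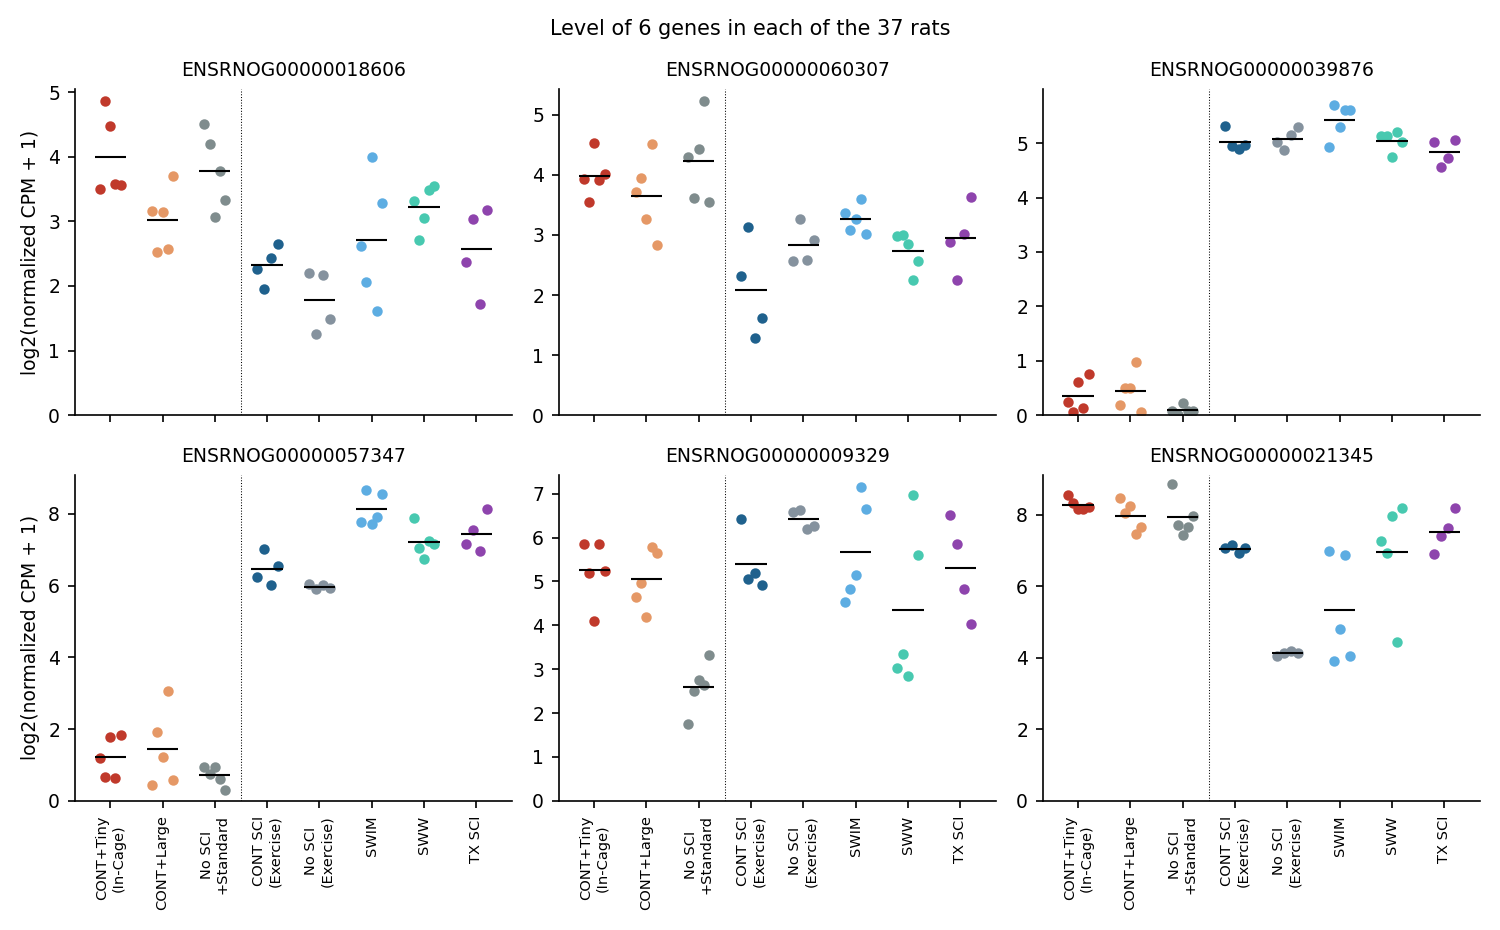
Each point is 1 rat, the horizontal bars are group means, and the vertical axes give log2(normalized CPM + 1) of 6 genes in the 8 groups, with the In-Cage set to the left of the dotted line and the Exercise set to the right. ENSRNOG00000039876 and ENSRNOG00000057347 divide by set in every group, whereas for ENSRNOG00000018606 and ENSRNOG00000060307 the CONT SCI + Large rats overlap with CONT SCI + SWIM rats, although the uninjured groups do not overlap. The last pair of genes differs by set more in the uninjured than in the contused rats in tiny cages without exercise.

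Genes at the limit of detection followed the same asymmetry. There were 3 genes with 0 counts in all 5 In-Cage rats and at least 10 counts in all 4 Exercise rats, and 0 genes with the reverse pattern. The same numbers were found after thinning. Taking 3 counts per library as the upper limit of a count of 0, these genes were at least 6.60-fold, 12.5-fold and 5.15-fold lower in the In-Cage rats, for counting error only. In the other 10 In-Cage libraries their counts were 0 or 1, and in the other 18 Exercise libraries the lowest count of any of them was 9.

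The 59 genes called 8-fold or more lower were followed in every rat. Their summed normalized CPM was 37.2, 21.6, 48.2, 35.3 and 45.6 in In-Cage rats 1 to 5 and 677.8, 671.0, 483.3 and 632.5 in Exercise rats 1 to 4. The contused rats in tiny cages chose these genes, so their own values are a description. The other 10 In-Cage libraries, which had no part in the choice, lay between 22.5 and 78.9, and the other 18 Exercise libraries between 563.4 and 1060. The most abundant genes weigh most in these sums. The median over the 59 genes was 0.0449 to 0.263 CPM in the other 10 In-Cage libraries. In the other 18 Exercise libraries it was 1.39 to 3.06 CPM. Between 12 and 19 of the 59 genes had 0 counts in any one contused In-Cage rat, and 0 of them had 0 counts in a contused Exercise rat. The filter on low counts largely fixes the latter. A gene near 0 counts in the In-Cage rats enters the test only if the 4 Exercise rats have enough counts. Rats 3 and 5 were the highest of the 5 In-Cage rats for 18 and 17 of the 59 genes, and rats 1, 2 and 4 for 11, 7 and 6.

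The summed level of the 21 genes called 4-fold or more higher did not divide all libraries by set in this way. The sum was 47.8, 68.7, 79.3, 63.9 and 62.8 CPM in In-Cage rats 1 to 5 and 14.4, 15.0, 14.3 and 12.8 in Exercise rats 1 to 4. ENSRNOG00000018606 and ENSRNOG00000060307 are among the 21, with 10.4 and 14.3 CPM in In-Cage rat 1 and 3.78 and 3.98 CPM in Exercise rat 1. The sum therefore partly repeats the values of these genes. The uninjured rats of the Exercise set, at 15.3 to 17.3, lay close to the contused Exercise rats. The other groups of that set lay higher, with CONT SCI + SWIM at 18.9 to 30.6, CONT SCI + SWW at 28.6 to 31.5 and TX SCI at 26.1 to 37.6. The highest TX SCI rat reached the lowest CONT SCI + Large rat, since that group ranged from 37.2 to 51.2, and No SCI + Standard ranged from 38.2 to 78.3.

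**Figure D3:**
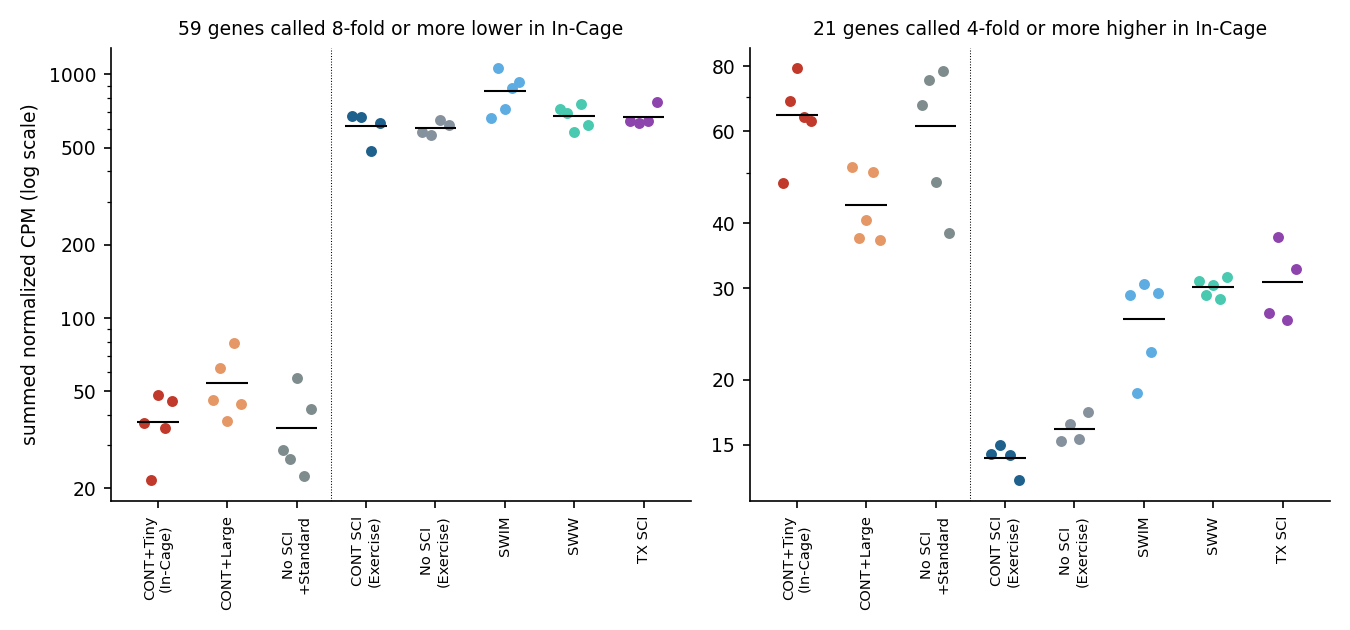
Each point is the summed normalized CPM of 1 rat on a log axis, with a bar at the group mean, for the 59 genes called 8-fold or more lower (left) and the 21 genes called 4-fold or more higher (right) in the contused In-Cage rats. On the left no In-Cage library exceeds 78.9 and no Exercise library is below 483.3, and on the right the sets overlap slightly at about 37 CPM.

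Over all genes, the 2 contused groups were far apart compared with the distance between rats of one group. On rlog values, the mean distance was 27.3 between In-Cage rats (10 pairs), 24.01 between Exercise rats (6 pairs) and 44.2 between the groups (20 pairs). The closest pair of rats from different groups was 36.3 apart, farther than any pair within a group. The groups accounted for 57.7% of the squared distance among the 9 rats (exact permutation p = 0.00794, the smallest possible), and for 56.1% to 61.2% with 1 rat left out. The share depended on how genes were weighted: it was 67.4% over the 500 genes with the highest variance and 36.96% with genes scaled to unit variance, with the same p. The first principal component carried 59.9% of the variance and placed the In-Cage rats between -24.1 and -12.5 and the Exercise rats between 15.7 and 24.6.

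The distance between these 2 groups was set beside the distances within each set. On log2(CPM + 1) values of all 37 libraries, the contused In-Cage and contused Exercise rats were 69.3 apart on average (20 pairs). The contused In-Cage rats were 45.2 from the CONT SCI + Large rats and 55.1 from the uninjured rats of their own set. The contused Exercise rats were 43.9 from the uninjured rats of theirs. The uninjured groups of the sets were 88.5 apart. For each of the 9 rats, the nearest of the 36 other libraries came from its own set, although for 5 of them it was a library of another condition.

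The rats were not equally far from the other group. In-Cage rats 2 and 4 were the farthest from the Exercise rats, at mean distances of 78.3 and 73.3, and rats 1, 3 and 5 were at 65.4, 64.5 and 64.9. Exercise rat 3, whose library was the shallowest of its group, was the nearest to the In-Cage rats, at 62.2 against 69.4 to 73.4 for the other 3. Of the 5505 called genes, 1372 had some overlap between the groups. Exercise rat 3 lay within the range of the In-Cage rats for 806 of the called genes (14.6%), and for 543 genes the overlap ended when it was left out. The other rats lay within the other group's range for between 143 (In-Cage rat 2) and 559 (In-Cage rat 3) of the called genes.

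Variation within a group was somewhat larger among the In-Cage rats. At equal depth and over 11843 genes, the median SD of log2 CPM was 0.200 in the In-Cage rats and 0.166 in the Exercise rats, and the biological coefficient of variation was 0.199 and 0.166. The SD was larger in the In-Cage rats for 62.3% of the genes. These values were not tested, since 1 group of rats stands behind each of them.

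Whether the sets also differ in rats without an injury was asked with 9 uninjured rats, whose libraries are not shared with the contused comparison. Between No SCI + Standard and No SCI of the Exercise set, 6252 of 12174 genes (51.4%) were called by edgeR. These groups also differ in cage size, which the contused groups do not. Of the genes called higher in the contused In-Cage rats and tested in both comparisons, 2453 of 2684 (91.4%) had the same sign in the uninjured rats, and 1733 (64.6%) were called there with that sign. Of the genes called lower, 2571 of 2769 (92.8%) had the same sign and 2011 (72.6%) were called with it. Over all genes tested in both, 78.0% had the same sign. The opposite sign was called for 8 of the genes higher and 9 of the genes lower in the contused comparison. All 167 genes that were 4-fold or more lower in the contused In-Cage rats and could be tested in the uninjured rats were lower there too, and 159 of them were called. All 16 genes that were 4-fold or more higher and could be tested there were higher too, and 15 of them were called.

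The sizes of the differences also went together. Across 12037 genes, the log2 fold changes of the contused and the uninjured rats had a Pearson r of 0.792 and a Spearman rho of 0.742. Genes are not independent replicates, and both comparisons set the same 2 library sets against each other. The difference was larger in size in the uninjured rats for 64.9% of these genes, with median sizes of 0.38 in the contused and 0.54 in the uninjured rats on the log2 scale. ENSRNOG00000018606 rose by 2.46 and ENSRNOG00000060307 by 1.69 on the log2 scale in the uninjured In-Cage rats, and the difference from the contused rats did not pass the test for either (edgeR adjusted p = 0.626 and 0.729). In the uninjured In-Cage rats ENSRNOG00000039876 had between 0 and 4 counts per library, and it was lower there too (edgeR adjusted p = 2.15e-08). ENSRNOG00000057347 had a log2 fold change of -6.51 in the uninjured rats, which did not pass as different from that of the contused rats either (edgeR adjusted p = 0.459).

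**Figure D4:**
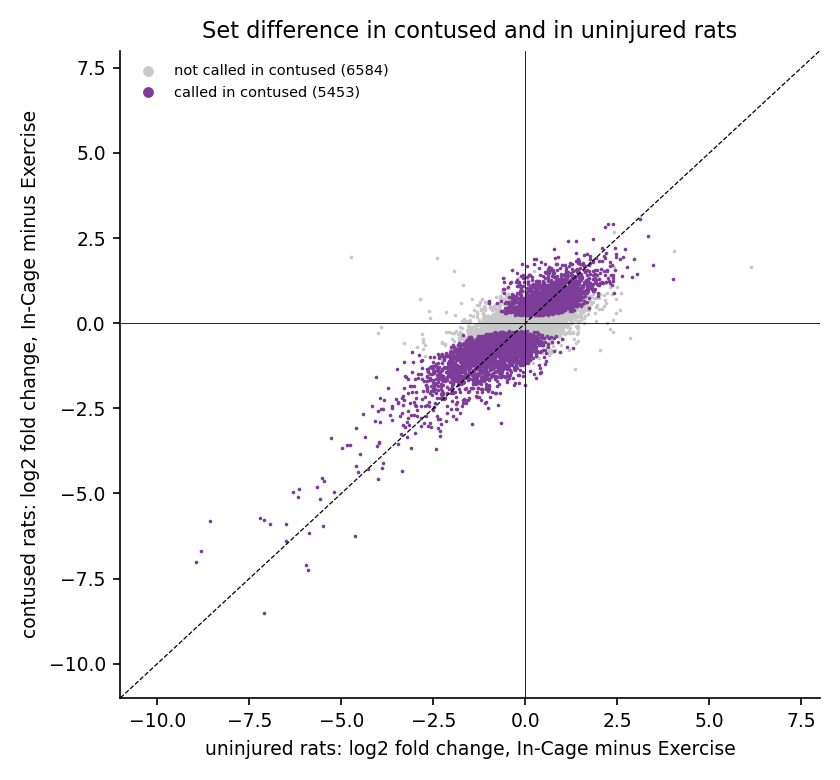
Each point is 1 of 12037 genes, with the log2 fold change between the sets (In-Cage minus Exercise) in uninjured rats on the horizontal axis and in contused rats on the vertical axis; the dashed line marks equal values. The 5453 genes called in the contused rats (purple) lie mostly at the lower left and upper right, and a few grey points lie far from the line.

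A direct test asked for which genes the difference between the sets had another size in contused than in uninjured rats. Over the 18 rats, 25 of 12571 genes (0.199%) were called by edgeR, and 3163 had an unadjusted p under 0.05. DESeq2 called 789. The number was not stable, and the reason was not tested. With 1 of the 18 rats left out it fell below 17 in 13 of 18 fits, down to 1 gene without contused Exercise rat 3 or rat 4. It rose above 37 in 4 fits, to 2010 genes without uninjured Exercise rat 2 and 1031 without No SCI + Standard rat 1. Of the 25 genes, 14 had set differences of opposite sign in contused and uninjured rats, 10 had a larger difference of the same sign in the uninjured rats and 1 in the contused rats. For most of the 14, 1 of the 2 differences was not called, so its sign is uncertain. Of the same 25 genes, 15 were called in the uninjured comparison and not in the contused one, 5 in the contused one and not in the uninjured one, and 5 in both.

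ENSRNOG00000009329 was the leading gene whose difference was more positive in the contused rats. It stood at 57.2, 35.8, 16.1, 57.1 and 36.9 CPM in In-Cage rats 1 to 5 and at 84.1, 32.4, 35.4 and 29.4 CPM in Exercise rats 1 to 4. These ranges overlap, and the log2 fold change of -0.10 ± 0.44 (SE) did not pass the test (edgeR adjusted p = 0.864). In the uninjured rats it stood at 2.38 to 9.04 CPM in the In-Cage set and at 72.6 to 98.2 CPM in the Exercise set, a log2 fold change of -3.92. The difference of 3.81 ± 0.55 (SE) between the 2 comparisons was called (edgeR adjusted p = 0.0139), and the call was lost without contused Exercise rat 3 (edgeR adjusted p = 0.0754), without rat 4 (0.0518) and with all 37 libraries in one fit (0.0709).

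ENSRNOG00000021345 was the leading gene in the other direction. It stood at 371.9, 317.9, 286.2, 287.4 and 295.9 CPM in In-Cage rats 1 to 5 and at 132.8, 140.4, 120.7 and 134.2 CPM in Exercise rats 1 to 4, a log2 fold change of 1.29 ± 0.11 (SE; edgeR adjusted p = 4.70e-06). The groups did not overlap, and the Exercise rats lay within a narrow range. In the uninjured rats it ranged from 171.1 to 467.3 CPM in the In-Cage set and from 15.5 to 17.4 CPM in the Exercise set, a log2 fold change of 4.02. The difference of -2.74 ± 0.30 (SE) was called (edgeR adjusted p = 0.00019) and was called with each of the 18 rats left out, but not with all 37 libraries in one fit (edgeR adjusted p = 0.0709).

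The contused rats were placed on the scale that the uninjured rats of both sets define. For each of the 6252 genes called in the uninjured comparison, 0 was the mean log2 level of No SCI + Standard and 1 that of No SCI of the Exercise set, and a rat's position was the median over these genes. In-Cage rats 1 to 5 lay at 0.372, 0.171, 0.512, 0.217 and 0.388, and Exercise rats 1 to 4 at 1.02, 0.899, 0.789 and 0.975. The means were 0.332 ± 0.138 (SD, n = 5) and 0.920 ± 0.100 (SD, n = 4), and the groups did not overlap (exact permutation p = 0.0159, the smallest possible). The uninjured rats chose the genes, which by itself places other rats nearer to the middle of the scale. The CONT SCI + Large rats, of the In-Cage set as well, lay between 0.117 and 0.667, which includes all 5 CONT SCI + Tiny rats. Over the 2602 genes with a difference of 2-fold or more in the uninjured rats, the means were 0.310 and 0.926.

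**Figure D5:**
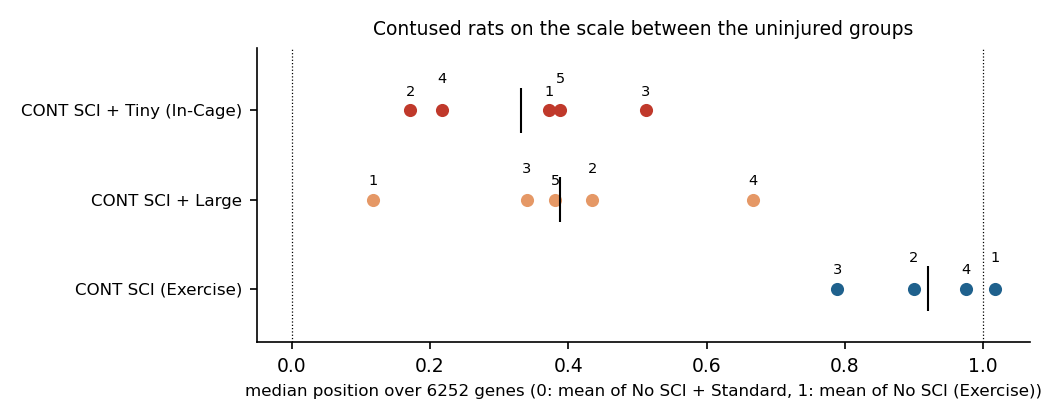
Each point is 1 contused rat, numbered by replicate, at its median position over 6252 genes on a scale from 0 (mean of No SCI + Standard) to 1 (mean of No SCI of the Exercise set), with a vertical bar at the group mean. The 5 CONT SCI + Tiny rats lie between 0.171 and 0.512 and the 4 CONT SCI rats of the Exercise set between 0.789 and 1.02.

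The called genes were last followed in the 28 libraries outside the 9, which are 10 of the In-Cage set and 18 of the Exercise set. These rats differ from the 9 in injury, cage or exercise, and some of them in the time after injury. Of all 12199 genes tested in the contused rats, 597 (4.89%) had no overlap between the sets in those 28 libraries, in either direction. Among genes called higher in the contused In-Cage rats, 85 of 2713 (3.13%) had no overlap in the direction of the contused comparison. Among those called lower, 502 of 2792 (17.98%) did so. Of the 178 genes 4-fold or more lower, 103 (57.9%) divided the 28 libraries completely, and of the 21 genes 4-fold or more higher, 0 did. By the median of the libraries of each set, 94.2% of the genes called higher and 97.6% of those called lower kept their direction, beside 81.9% of all genes. Of the 21 genes 4-fold or more higher, 20 kept it, and of the 178 lower, 177.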

How the data were processed

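Liver RNA was sequenced as poly(A)-selected, strand-specific libraries with single-end reads. The authors used STAR for alignment to Rn6 and HTSeq for counting by Ensembl gene, and deposited the raw counts. The paper states that mitochondrial genes were excluded from counting. Whether the deposited table holds any was not checked, because its identifiers have no names here. Every sample column entered the work. Groups and replicate numbers were taken from the sample labels. The members and gene lists were chosen with earlier results of these data known.

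Differences were tested on the counts of the groups concerned by glmQLFit (robust) and glmQLFTest of edgeR 4.0.16 (R 4.3.3) after TMM normalization. Low genes were removed by filterByExpr (min.count 10, min.total.count 15), and an adjusted p (Benjamini-Hochberg, over all genes tested) under 0.05 was a call. Standard errors were derived from the fold change and the F value. Printed CPM values were scaled by TMM over all 37 libraries. DESeq2 1.42.0 gave the rlog and vst values and the alternative test. Thinning was binomial to the lowest total. In the 9 contused libraries compared here, the depth was 20066978 to 35765326 reads counted on genes. No pair of libraries within a group agreed within sampling noise (lowest reduced chi-square 34.4 over genes), so none was treated as one library deposited a second time, and each was counted as a separate rat.

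The alternatives were DESeq2, RLE normalization, no filter, thinned counts, a single fit to all 37 libraries, a block for the replicate number, removal of the 10 genes with the most counts and each rat left out. For distances they were vst, log2(CPM + 1), 500 genes and unit variance, and for detection a minimum of 5 counts. The positions between the uninjured groups, and their alternatives, were added after the data had been seen. The rule for named genes asked for a gene symbol, which no row has. Of the called genes without overlap whose mean count was 100 or more, the 2 per direction with the largest difference are named, and with the same minimum of counts 1 per direction with the smallest p for the difference between comparisons. Lists of liver genes, cell type markers and promoter motifs were not analysed here, because 0 identifiers could be paired with the 47357 genes of the RefSeq table.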

Additional observations from a re-analysis of the deposited data

Results flagged for a closer look

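Dixon's criterion was applied to 32 groups of 4 or 5 rats, covering measures of the libraries and the 6 named genes. A rat far from the others was found in 3 groups, all of them for named genes, which chance does in about 1 in 20 groups. ENSRNOG00000039876 was 38.6 CPM in contused Exercise rat 1, above 28.7 to 30.1 CPM in the other 3 rats of that group. ENSRNOG00000009329 was 84.1 CPM in the same rat, above 29.4 to 35.4 CPM in the others. ENSRNOG00000021345 was 467.3 CPM in No SCI + Standard rat 1, above 171.1 to 251.0 CPM in the others.

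The difference between the sets had another size in contused than in uninjured rats for 25 genes by a test of the difference itself. The leading genes were ENSRNOG00000009329, with a difference of 3.81 on the log2 scale (edgeR adjusted p = 0.0139), and ENSRNOG00000021345, with -2.74 (edgeR adjusted p = 0.00019). Cage size also differs between the uninjured groups, so a part of cage size in these 25 genes cannot be told apart from one of the injury.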

How the results depend on the processing

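The number of genes called in the contused comparison stayed within 1.5 times 5505 under all 16 alternatives (4359 to 5738), and so did the 6252 genes of the uninjured comparison (4674 to 6981). No scaling alternative moved the share of higher calls by more than 10 percentage points. The 25 genes of the difference between comparisons became 789 with DESeq2, 12 with the replicate block and 1 to 2010 with each rat left out, and the cause was not tested. With all 37 libraries in one fit there were 19, of which 8 were among the 25. The genes 4-fold or more apart ranged from 18 to 92 (higher) and from 165 to 367 (lower), the highest of both without a filter on low counts. The 6 named genes kept direction and call in 110 of 114 alternative fits. The replicate numbers do not pair the rats: the correlation of deviations between rats of the same number was at most 0.0104, and 0 of 8 correlated best with their own number. As a block, the number gave 4359 calls in the contused and 4674 in the uninjured comparison. The shares of distance, the detection counts and the positions kept their side of the threshold. The gene lists could not be run because the identifiers have no names. Depth limits the genes near 0 counts in the In-Cage rats.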
